A study of Mus musculus with 2 samples.

Results

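The small heat shock proteins of the mouse were followed in fetal ear through 7 genes, Hspb1, Hspb2, Hspb3, Hspb6, Hspb7, Hspb8 and Cryab. Members were the probe sets that the platform annotation pairs with exactly 1 of these genes, which gave 8 probe sets for 7 of the 19938 genes on the array. The family was picked because Hspb1 was known to be far lower in the mutant while large chaperones were not, so the members' differences between the arrays are a description and carry no test. Total RNA came from the ear at E18.5, shortly before birth. The array of the double knockout held RNA of BALB/c tissue null for Myf5 and Myod1 (Myf5-/-:MyoD-/-), and the other array held RNA of wild-type BALB/c tissue. There was 1 array per genotype, so no value has a replicate check and no test across animals is possible. Neither the dissected part of the ear nor any pooling of embryos is stated in the labels.

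Small heat shock proteins share the alpha-crystallin domain and assemble into oligomers that hold partly unfolded proteins without using ATP. Striated muscle makes several of them, where they sit at the Z-disc, on desmin filaments and on actin, and Hspb1 and Cryab are also made in many other cells. Myf5 and Myod1 encode the factors that turn progenitors into myoblasts, and fetuses that lack both genes make almost no skeletal muscle.

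All 7 members read lower in the double knockout, by unequal amounts. Hspb7 was below the floor of the array there, at least 9.17-fold lower than in the wild type, and Hspb1 was 7.50-fold lower. Hspb8, Hspb6, Hspb2 and Cryab were 3.55-fold, 2.68-fold, 2.24-fold and 2.11-fold lower, and Hspb3, a weak signal on both arrays, was at least 1.57-fold lower. At 2-fold or more, 6 of the 7 members were lower and 0 were higher, against 1.71% of the 12458 genes tested that were lower by as much and 0.482% that were higher; the members were chosen on this contrast, so nothing is read from that count. Of the 6, 5 were measured on both arrays and 1 is a bound. A floor was set at the 50th percentile of all probe sets on each array, 5.70 in the double knockout and 5.65 in the wild type on the log2 scale, and lower values were raised to it. A gene was tested if it lay above the floor on at least 1 array, and a fold with 1 side at the floor is written "at least".

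**Figure D1:**
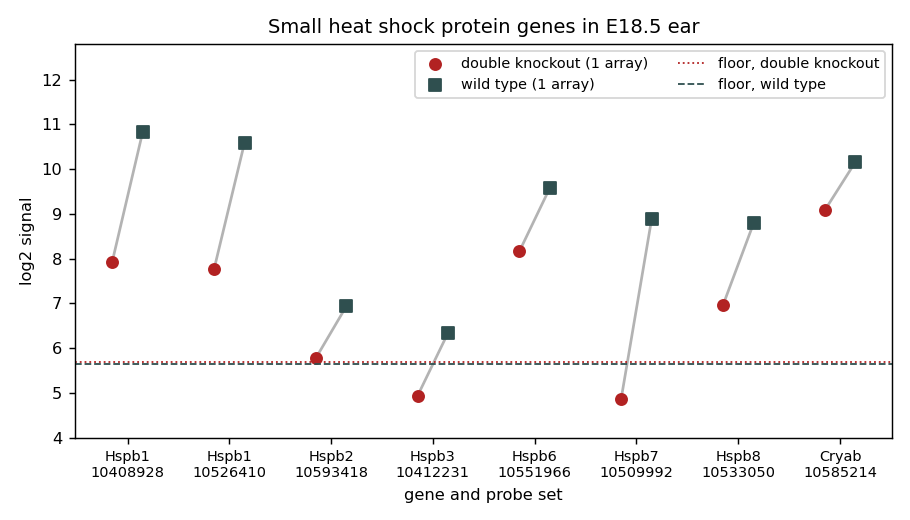
Log2 signal of each of the 8 member probe sets, with the double knockout as red circles, the wild type as dark squares, 1 array each, and the floor of each array as a line. All 8 probe sets lie lower in the double knockout; Hspb3 (4.94) and Hspb7 (4.87) lie below the floor there.

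The promoter windows are shown because the members were all lower. A second reason is the heat shock element, the site that heat shock factors bind and the textbook control of stress-induced genes such as Hspb1. RefSeq windows of build GRCm38.p6, 250 bases before to 50 after a start, were at hand for 5 of the 7 members. They made 6 windows, of which Hspb6 has 2 at different starts, and Cryab and Hspb2 had none in the table. Capitals mark an inverted repeat of the element, GAANNTTC or TTCNNGAA, each of which reads the same on both strands. The windows of Hspb1 (chr5:135887669-135887968, plus strand), of the downstream start of Hspb6 (chr7:30553051-30553350, plus strand) and of Hspb8 (chr5:116422815-116423114, minus strand) hold it, and that of Hspb7 (chr4:141420529-141420828, plus strand), the member with the largest difference, does not.
Hspb1: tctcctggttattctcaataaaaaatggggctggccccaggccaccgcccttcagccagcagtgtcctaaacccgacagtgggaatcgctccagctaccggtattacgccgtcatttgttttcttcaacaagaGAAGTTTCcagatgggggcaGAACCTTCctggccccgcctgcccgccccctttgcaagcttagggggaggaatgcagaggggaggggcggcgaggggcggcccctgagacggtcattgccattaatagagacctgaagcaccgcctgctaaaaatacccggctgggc
Hspb6: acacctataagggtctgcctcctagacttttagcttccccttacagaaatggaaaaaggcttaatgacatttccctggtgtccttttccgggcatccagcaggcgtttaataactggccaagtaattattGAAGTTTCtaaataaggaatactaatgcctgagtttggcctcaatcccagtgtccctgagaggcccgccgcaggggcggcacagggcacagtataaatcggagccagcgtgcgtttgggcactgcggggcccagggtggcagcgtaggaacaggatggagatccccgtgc
Hspb8: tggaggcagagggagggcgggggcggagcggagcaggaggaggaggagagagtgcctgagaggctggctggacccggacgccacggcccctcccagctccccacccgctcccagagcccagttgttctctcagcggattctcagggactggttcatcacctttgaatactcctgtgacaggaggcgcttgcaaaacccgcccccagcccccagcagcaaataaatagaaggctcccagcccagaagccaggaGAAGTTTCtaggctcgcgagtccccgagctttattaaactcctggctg
Hspb7: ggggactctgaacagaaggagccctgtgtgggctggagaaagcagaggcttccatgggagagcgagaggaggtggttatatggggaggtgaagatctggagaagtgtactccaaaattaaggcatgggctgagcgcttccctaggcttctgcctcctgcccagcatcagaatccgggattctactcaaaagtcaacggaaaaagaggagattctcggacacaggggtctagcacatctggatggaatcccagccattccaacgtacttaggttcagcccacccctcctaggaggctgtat

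The repeat was in 4 of the 6 member windows, those of Hspb1, Hspb3, Hspb6 and Hspb8, and in 15.1% of all 32851 promoter windows of this length. In 3 of them it had the same letters, GAAGTTTC, a string searched after it was seen, which occurs on either strand in 1.21% of all windows. It lay at -117 to -110 in Hspb1, at -120 to -113 in the downstream window of Hspb6 and at 3 to 10 in Hspb8, where 1 is the first base of the transcript. Hspb1 held a second repeat at -97 to -90, and that of Hspb3 lay at -224 to -217. The E-box CANNTG, the short site that Myod1 and its relatives bind, was in 4 of the 6 windows and in 72.3% of all windows. Its forms CAGCTG and CACCTG were in 0 of the 6, against 16.3% and 20.2% of all windows. The MEF2 motif was in the window of Hspb3 alone, at -12 to -3, where it overlaps the string TATAAA at -11 to -6, and in 3.19% of all windows. The CArG box, the site of serum response factor, was in 0 of the 6 and in 1.63% of all. Each motif was searched on both strands, a match is letters only, and the absence of a match covers only these windows.

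Hspb1, the mouse counterpart of human HSP27, is a stress-induced chaperone that also binds actin. Its signal was 7.93 in the double knockout and 10.84 in the wild type (probe set 10408928), a log2 difference of -2.91. A second probe set (10526410) read 7.77 in the double knockout and 10.60 in the wild type, a difference of -2.83 or 7.11-fold lower. Both probe sets thus left 13.3% and 14.1% of the wild-type signal, and both stayed above the floor. They differed from each other by less than the spread between probe sets of the same gene, 0.168 on the log2 scale (SD over 619 genes), a figure for probe noise that leaves out animals. The annotation gives both the same transcripts. RefSeq also lists a pseudogene, Hsp25-ps1, on chromosome 13, so signal of the gene and of its copy may not be separable on this array.

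Cryab, or alpha-B-crystallin, chaperones desmin in muscle and is a major lens protein. It read 9.08 in the double knockout and 10.16 in the wild type, a log2 difference of -1.08. It kept 47.4% of its wild-type signal, more than any other member measured on both arrays. Hspb6, which is abundant in muscle and co-assembles with other small heat shock proteins, read 8.16 in the double knockout and 9.59 in the wild type and kept 37.3%. Both genes were above the floor on both arrays.

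Hspb8 works with the co-chaperone Bag3 in clearing damaged proteins. It read 6.96 in the double knockout and 8.79 in the wild type, a log2 difference of -1.83, and kept 28.2%. Hspb7, which is made mainly in heart and skeletal muscle and binds filamin C, read 4.87 in the double knockout and 8.90 in the wild type. With the floor its difference was -3.20, a bound that leaves at most 10.9% of the wild-type signal, and on the deposited scale it was -4.03. Hspb7 and Hspb3 were the members not above the floor in the double knockout.

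Hspb2 and Hspb3 form a complex with each other and are found mainly in muscle. Hspb2 read 5.78 in the double knockout, just above the floor, and 6.94 in the wild type, a log2 difference of -1.16 that left 44.7%. Hspb3 read 4.94 in the double knockout and 6.35 in the wild type. Its difference of -1.41 on the deposited scale shrank to -0.65 with the floor, and its side in the double knockout is only a bound. Raising low values to the floor shrinks the differences of such weak signals.

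**Figure D2:**
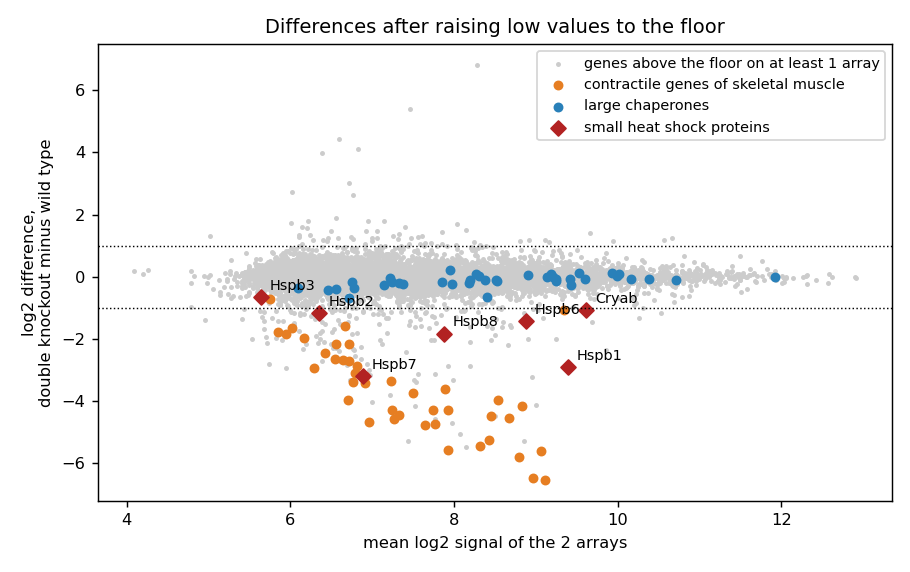
Log2 difference (double knockout minus wild type, low values raised to the floor) against the mean log2 signal of the 2 arrays, for the 12458 genes tested. Dotted lines mark 2-fold. Hspb3 (-0.65, a bound) lies within the range of the large chaperones. Hspb7 (-3.20, a bound) and the other 5 members (-2.91 to -1.08) lie within the range of the contractile genes, -6.54 to -0.72.

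Skeletal muscle markers were lower in the double knockout as well, by more. At 2-fold or more, 1.71% of all genes tested were lower and 0.482% higher. Among 42 contractile genes that passed the floor, 41 were 2-fold or more lower and 0 were higher, with a median log2 difference of -3.67, beside -1.42 for the 7 members and -0.01 for all genes tested. The summed linear signal of this list was 2152 in the double knockout and 49971 in the wild type, and 13 of its 43 genes with a probe set were above the floor in the double knockout, against 42 in the wild type. Actc1, a sarcomeric actin, read 5.84 in the double knockout and 12.38 in the wild type. Of the other contractile genes of highest signal, Myl1 differed by -5.60 and Cfl2 by -1.09. On the deposited scale, without a floor, 36 of the 42 contractile genes had a more negative difference than Hspb1, 23 than Hspb7, 39 than Hspb8, 40 than Hspb6, 40 than Hspb3, 41 than Hspb2 and 42 than Cryab. In whole-tissue RNA, fewer muscle cells and less RNA per cell cannot be told apart, and the part of muscle content in the members' differences was not tested. The targeted genes themselves were weak: Myod1 read 6.38 in the double knockout and 6.95 in the wild type, and Myf5 read 5.25 in the double knockout, below the floor, and 5.94 in the wild type. No source used here tells if their probe sets lie in the deleted parts, so these values do not check the labels.

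Markers of other tissues gave smaller differences in most lists. As background to the counts, 1.71% of all genes tested were 2-fold or more lower and 0.482% higher. Of the inner ear markers, 10 of 11 were above the floor on both arrays and all 10 were within 2-fold, with Oc90, the main otoconial protein, at 11.26 in the double knockout and 11.28 in the wild type. Lens genes were near background, with 2 of 12 above the floor on either array, and Cryaa, the lens partner of Cryab, read 5.48 in the double knockout and 5.27 in the wild type, below the floor on both. Neuronal genes had a median difference of 0.15 over 13 genes and epidermal genes of 0.05 over 9, with 0 of either list 2-fold lower and 2 epidermal genes 2-fold higher. Schwann cell, endothelial and macrophage genes had medians of -0.11 over 8 genes, -0.07 over 10 and -0.29 over 9, with 0 of these 2-fold lower or higher. Cartilage genes had a median of 0.03 over 13 genes, with 1, Col10a1, 2.14-fold lower. Smooth muscle genes had a median of -0.45 over 11, with 2 at least 2-fold lower, Acta2 at 2.02-fold and Des, which skeletal muscle also makes, at 22.4-fold. The summed signal of the smooth muscle list was 2505 in the double knockout and 5458 in the wild type. That sum includes Des, which is also in the contractile list. On the log2 scale Des read 6.21 in the double knockout and 10.70 in the wild type. The part of smooth muscle in the members' differences was not tested. Fat genes went the other way, with 4 of 11 genes 2-fold or more higher and a median of 0.68. Salivary gland genes did so by more, with 7 of 8 genes 2-fold or more higher, a median of 3.48 with low wild-type values raised to the floor, and a summed signal of 10954 in the double knockout and 392 in the wild type. Bpifa2, a salivary secretory protein, read 12.47 in the double knockout and 4.09 in the wild type, where 2 of the 8 genes of the list were above the floor. The arrays thus differed in signal of gland and fat as well as of muscle, and the part of this in the members' differences was not tested.

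The remaining genes of the small heat shock family gave little signal. Hspb11, a component of intraflagellar transport, read 5.96 in the double knockout and 6.36 in the wild type, a difference of -0.40. Hspb9 and Odf1, which are made in testis, and Cryaa were below the floor on both arrays. Hspb9 read 5.15 in the double knockout and 4.85 in the wild type, and Odf1 read 3.55 in the double knockout and 3.37 in the wild type.

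Large chaperones, which use ATP to fold or refold proteins such as those that small heat shock proteins hold, were within 2-fold. Of 42 large chaperone genes with a probe set, 39 were above the floor, and 39 of the 39 were within 2-fold. Their differences ran from -0.68 to 0.22, with a median of -0.10. Of all genes tested, 1.71% were 2-fold or more lower and 0.482% higher. The HSP70 genes Hspa8, Hspa5 and Hspa9 differed by -0.01, -0.11 and 0.08. The HSP90 genes Hsp90b1, Hsp90aa1 and Trap1 differed by -0.08, -0.08 and -0.10. Chaperonins had a median of -0.01 over 10 genes, and the HSP40 co-chaperones one of -0.20 over 13, with Dnaja1, Dnajc5 and Dnaja2 at -0.07, 0.08 and -0.14. The lowest difference was that of Dnaja4, picked out for that value, which read 6.38 in the double knockout and 7.06 in the wild type. The family was picked because Hspb1 was lower and large chaperones were not, so their places beside each other are a description only. With the floor, Dnaja4 at -0.68 was more negative than the bound of Hspb3 at -0.65, and the other 6 members lay below all 39. On the deposited scale, without a floor, 0 of the 39 had a more negative difference than any member. The 39 had been chosen by the floor, however. Hspa1l, below it on both arrays at 4.05 in the double knockout and 5.54 in the wild type, differed by -1.49. That is more negative than Hspb6, Hspb3, Hspb2 and Cryab on this scale. The other dropped genes, Dnajb6 and Cct6b, differed by -0.04 and 0.10.

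The genes listed for the heat shock response, among which no small heat shock gene was placed, were within 2-fold. Of 15 measured genes of this list, 15 were within 2-fold, with a median of -0.07. Over all genes tested, 1.71% were 2-fold or more lower and 0.482% higher, so nothing is read from that count. Hspa1a, the inducible HSP70 gene, looked up after the analysis, read 6.24 in the double knockout and 6.68 in the wild type. Of 13 such genes with a promoter window, 9 held the heat shock repeat shown above in any of their windows. The repeat was in 15.1% of all promoter windows, a share per window rather than per gene. Of the 9 genes, the 8 with a value differed by -0.44 to 0.12. Among the heat shock factors, Hsf2 read 7.38 in the double knockout and 7.70 in the wild type, and Hsf3, Hsf4 and Hsf5 were below the floor on both arrays. Hsbp1, which binds heat shock factor, differed by 0.15. No probe set was paired with Hsf1 alone, so the main factor of the heat shock response has no value here.

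Partners of the small heat shock proteins differed among themselves. For the counts below, 1.71% of all genes tested were 2-fold or more lower and 0.482% higher. Among Bag proteins and factors of chaperone-assisted autophagy, 1 of 15 was 2-fold or more lower, 0 were higher, and the median was -0.07. That gene was Flnc, the filamin of muscle, at 7.92 in the double knockout and 9.91 in the wild type, 3.97-fold lower. Flna, the filamin of most other cells, differed by -0.10, Sqstm1 by -0.01 and Ilk by -0.24. Bag3, the partner of Hspb8, looked up after the analysis, read 7.89 in the double knockout and 8.32 in the wild type, a difference of -0.43, beside -1.83 for Hspb8. Of 10 intermediate filament genes, 3 were 2-fold or more lower, 0 were higher and the median was -0.19. Des, the filament protein that Cryab chaperones, was 22.4-fold lower, and the other 2, seen first in the data, were Sync, a desmin partner, at 4.29-fold and Nes, a filament of developing muscle and neural progenitors, at 2.48-fold lower. Vim, Nefl and Krt8 differed by -0.20, -0.17 and 0.44.

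The chaperones dedicated to myosin and the sarcomere also differed among themselves, with 3 of 6 genes 2-fold or more lower, 0 higher and a median of -0.78. The shares over all genes tested were 1.71% lower and 0.482% higher. Klhl41, a Kelch protein of the sarcomere, was at least 21.1-fold lower. The other 2, also seen first in the data, were the muscle factors Smyd1 and Unc45b, which help fold myosin, at least 4.48-fold and 2.31-fold lower. Their widely made relatives Smyd2 and Unc45a differed by -0.03 and 0.07. Klhl40, another Kelch gene of the list, did not pass 2-fold, at -0.36, a bound.

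**Figure D3:**
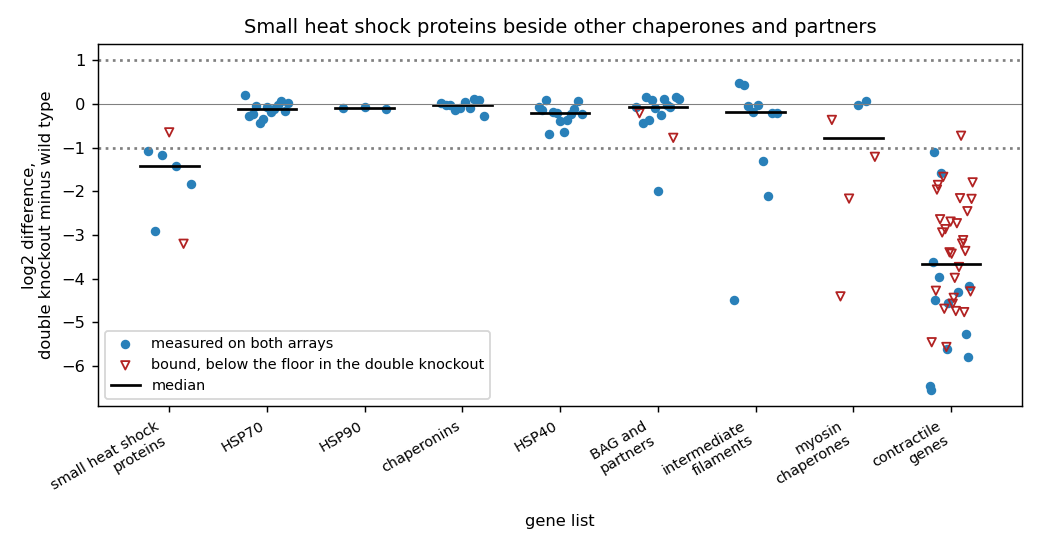
Log2 difference (double knockout minus wild type) of each gene above the floor, by list, with filled circles for genes measured on both arrays, open triangles for bounds and bars for medians. The small heat shock proteins have a median of -1.42, the HSP70, HSP90, chaperonin and HSP40 lists lie within 2-fold throughout, and the contractile genes have a median of -3.67.

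The members lie on 5 chromosomes, and their nearest neighbours were within 2-fold. For each member the nearest protein-coding gene with a probe set of its own was taken on each side in the RefSeq assembly. Of 12 such genes that are not members, 9 were above the floor and 0 were 2-fold lower or higher. Of all genes tested, 1.71% were lower and 0.482% higher by as much, so nothing is read from that count. The differences of the 9 ran from -0.27 to 0.55, the latter a bound, with a median of 0.21. Cryab and Hspb2 are neighbours on chromosome 9, where the annotated span of Cryab overlaps that of Hspb2, so signal from the pair may not be wholly separable. Their differences were near each other at -1.08 and -1.16. The genes flanking the pair, 2310030G06Rik and 1110032A03Rik, differed by -0.03 and 0.47, the first a bound just below the floor in the double knockout. Lin37, whose span overlaps that of Hspb6 on chromosome 7, read 7.56 in the double knockout and 7.21 in the wild type. Next to Hspb1 on chromosome 5, Ywhag differed by 0.21 and Srrm3 was below the floor on both arrays. Fam131c beside Hspb7, just below the floor in the wild type, differed by at least 0.55. Srrm4 beside Hspb8 differed by 0.49, and both were opposite in sign to the member.

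**Figure D4:**
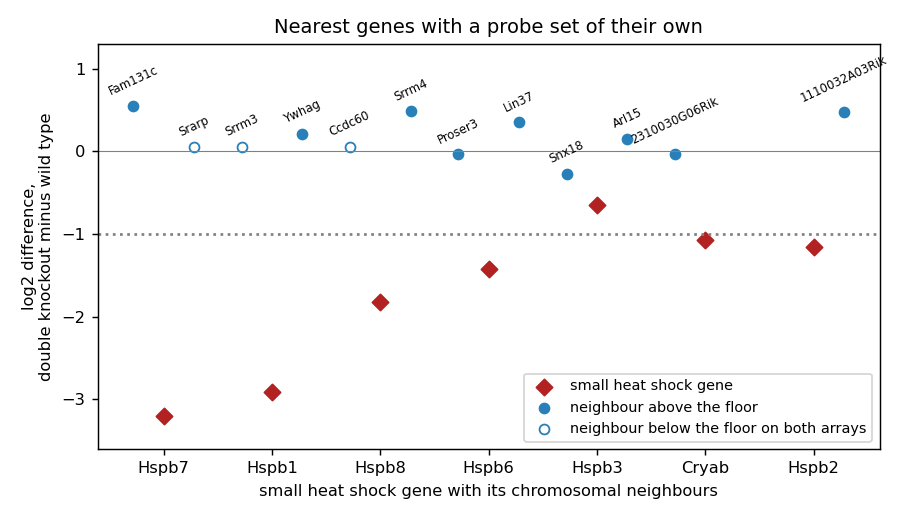
Log2 difference (double knockout minus wild type, low values raised to the floor) of each small heat shock gene, as a diamond, and of its nearest gene on either side, as a circle. The 9 neighbours above the floor lie between -0.27 and 0.55, and the open circles are neighbours below the floor on both arrays. The diamonds of Hspb7 and Hspb3 and the circles of Fam131c and 2310030G06Rik are bounds.

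For each member measured on both arrays and past 2-fold, the 3 genes nearest to it in log2 difference over the 2 arrays were listed. With 2 arrays this likeness is only a similar fold. Beside Hspb1 at -2.91 stood Thbs4, a thrombospondin of tendon, at -2.88, Cap2, an actin regulator, at -2.87 and Cox6a2, a muscle subunit of cytochrome oxidase, at -3.14. Beside Hspb8 at -1.83 stood Ankrd23, a muscle ankyrin-repeat protein, at -1.83, Tnxb, a tenascin, at -1.82 and Tpsab1, a mast cell tryptase, at -1.80. Beside Hspb6 at -1.42 stood Ssc5d at -1.44, the tubulin Tuba4a at -1.45 and Kcne1l at -1.45. Beside Hspb2 at -1.16 stood Tpm1, a tropomyosin, and Pde4dip at -1.17 each and Ache, the acetylcholinesterase of the neuromuscular junction, at -1.15. Beside Cryab at -1.08 stood Hif1an at -1.08, Nol3 at -1.07 and the limb and head transcription factor Tbx15 at -1.08.

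The order of the members by difference was the same under 5 other scalings of the arrays. Equal medians, equal trimmed means and equal housekeeping medians shift every gene alike, so they could not change that order. Only quantile normalization and the removal of a trend with mean signal could have changed it. Over these scalings the difference of Hspb1 ranged from -2.91 to -2.75, that of Hspb8 from -1.82 to -1.67, that of Hspb6 from -1.42 to -1.26 and that of Cryab from -1.08 to -0.92. Cryab is the member whose 2-fold call is lost, under equal medians of housekeeping genes, a scaling that moves the median of all genes from -0.01 to 0.15. The median of the large chaperones turns to 0.06 under that scaling. It lies below the median of all genes as before, because that scaling shifts both alike. Hspb7 and Hspb3, with a side at the floor, move with the floor, from -4.03 to -1.55 for Hspb7.

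**Figure D5:**
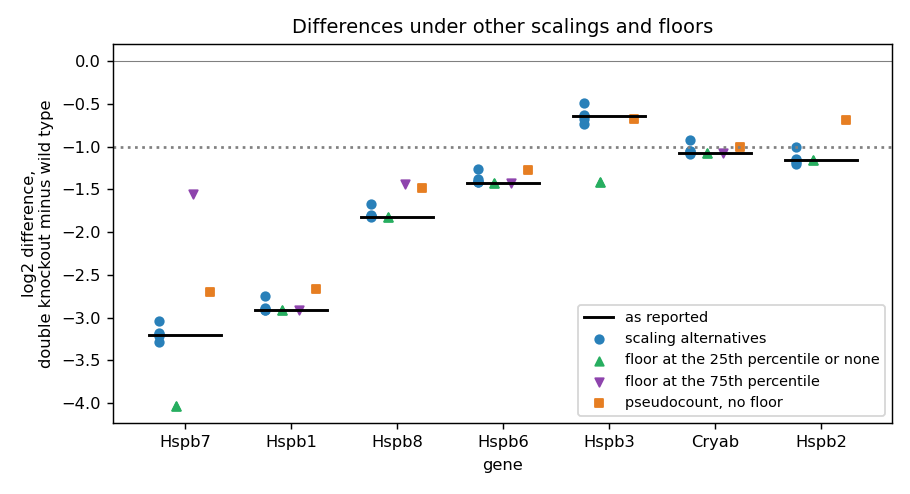
Log2 difference (double knockout minus wild type) of each small heat shock gene as reported (black bars) and under other scalings, floors and a pseudocount (symbols); the dotted line marks 2-fold lower. Hspb1 stays between -2.91 and -2.67, whereas Hspb7 ranges from -4.03 to -1.55.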

How the data were processed

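The authors deposited 1 table of log2 values per probe set, 35557 probe sets on 2 arrays. The base of the logarithm is inferred from the span of values, 0.75 to 13.26 in the double knockout and 0.81 to 13.27 in the wild type. Per the submitters' processing notes MAS5 was used, with no version. MAS5 reads mismatch probes, which whole-transcript gene arrays of this kind lack, so how the signal and its background were made is unsettled, and this bears most on folds near the floor. The exact steps and any between-array normalization are not stated in the sources at hand, nor is a genome build. Per the labels' protocols, RNA was extracted with Trizol and labelled with biotin from 6 µg.

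Gene names came from the platform annotation, which can be old, and were updated by Entrez identifier through RefSeq. It paired 21789 probe sets with 1 gene, 1621 with several and 12147 with none listed; 21698 of the first were found in RefSeq. Probe sets with several genes were not used. The probe set of highest mean linear signal stood for a gene. Values were used on the deposited scale, raised to the floor at the 50th percentile, and genes were counted at 2-fold. Of 12458 genes tested, 11626 were above the floor on both arrays. With 1 array per group no test was run, and precision is limited by having so few arrays.

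The members and lists were chosen with earlier results of these data known. Genes named were taken from the members, all heat shock factors, other small heat shock genes, the neighbours and the genes of nearest difference. From each list used, the 3 of highest signal and the one with the largest difference past 2-fold could be named. Not every neighbour or list gene under this rule is named. Genes named outside this rule are stated where they occur. The targeted genes and the heart markers are also named outside it. Neighbours were protein-coding genes with a probe set of their own. The calculation was checked on simulated data. Python 3.11.15, numpy 2.4.6, pandas 2.3.3 and statsmodels 0.14.6 were used. The alternatives were 5 scalings, 4 treatments of low values, the median over probe sets, and folds of 1.5 and 3.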

Additional observations from a re-analysis of the deposited data

How the results depend on the processing

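All 7 members kept their direction under the 10 alternatives that gave a difference for them. With the floor at the 75th percentile Hspb2 and Hspb3 were above it on neither array and gave no value. A difference is said to have moved where it changed by more than the spread of 0.168 between probe sets of a gene. With the floor at the 25th percentile and with none, Hspb3 moved to -1.41 and Hspb7 to -4.03, both on the deposited scale, the median of the contractile genes to -4.17 and -4.23, and that of the myosin chaperones to -1.26. With the floor at the 75th percentile Hspb7 moved to -1.55, Hspb8 to -1.44, the contractile median to -2.34 and that of the myosin chaperones to -0.27, as low values are raised further. With a pseudocount of the median signal, which shrinks differences of low genes, Hspb1 moved to -2.67, Hspb2 to -0.69, Hspb7 to -2.70, Hspb8 to -1.48 and the contractile median to -2.99. The count of members at least 2-fold lower was 5 to 7 under the scalings and floors, and 3 at 3-fold. Over all genes, those lower numbered 111 with the floor at the 75th percentile, 451 at 1.5-fold and 120 at 3-fold, and those higher 21, 280 and 16. Those higher were also 109 under equal housekeeping medians, with 175 lower, and 34 with the pseudocount. The medians of the HSP70, chaperonin, HSP40 and large chaperone lists moved by less than the spread in each. No paired analysis was possible because there is 1 array per genotype, and no replicate could be left out.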

Other observations

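Genes named for binding a heat shock protein were near 0. Hspbp1, a nucleotide exchange factor of HSP70, read 8.10 in the double knockout and 8.13 in the wild type, a difference of -0.02. Hspbap1, which was named for binding Hspb1, read 5.73 in the double knockout and 5.89 in the wild type, a difference of -0.16 close to the floor. Both were looked up after the values of the family had been seen.

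The slow and heart-type muscle genes had a median difference of -2.79 over 10 genes above the floor. Of these, 9 were 2-fold or more lower, against 1.71% of all genes tested. Tnnt2 read 5.85 in the double knockout and 9.17 in the wild type, and Myoz2, a Z-disc protein of slow fibres, read 3.74 in the double knockout and 9.68 in the wild type, at least 15.8-fold lower. The heart markers Myh6, Tnni3, Nppa and Nppb, looked up after the analysis, were below the floor on both arrays.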
